A study of Mus musculus with 10 samples.

Results

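The replication-dependent histone genes measured here were the 67 genes, of 22607 in the libraries, whose GENCODE M21 symbol begins with Hist1h, Hist2h, Hist3h or Hist4. They encode 6 linker histones of type H1 and the core histones, with 18 genes for H2A, 18 for H2B, 12 for H3 and 13 for H4. Of these genes, 54 lay on chromosome 13, 10 on chromosome 3, 2 on chromosome 11 and 1 on chromosome 6. Their transcripts were read in 10 mRNA sequencing libraries of antigen-presenting cells, which take up material and display it to T cells. The mice were wild type, of strain C57BL/6, and 8 weeks old. The 5 sorted groups were colonic cells bearing major histocompatibility complex class II (colonic MHCII+), splenic MHCII+ cells, and colonic CD11b+CD11c+, CD11b+ and CD11c+ cells, with 2 libraries each. CD11b and CD11c are integrin chains that mark mononuclear phagocytes and dendritic cells. No group carried a mutation or treatment, and the labels do not say whether the libraries of a group came from separate or pooled mice, so a p-value measures the spread between libraries, which may be technical.

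Core histones H2A, H2B, H3 and H4 form the protein spool around which DNA is wound, and H1 binds the DNA that enters and leaves it. Replication-dependent histone genes supply new histones as DNA is copied in S phase. Their messenger RNAs typically end in a conserved stem-loop, bound by the stem-loop binding protein SLBP, and carry no poly(A) tail. Some of these genes also give polyadenylated transcripts, and the libraries here were made from poly(A)-selected RNA, so the levels below are those of histone RNA that this selection retained.

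The stem-loop was read from the GENCODE M21 transcripts of the most abundant histone genes, because it marks the transcript end that poly(A) selection bears on. The 16 bases of the stem-loop are in capitals, with up to 5 flanking bases on each side.
Hist1h1c: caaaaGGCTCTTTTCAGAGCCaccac
Hist1h2ao: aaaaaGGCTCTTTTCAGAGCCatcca
Hist3h2a: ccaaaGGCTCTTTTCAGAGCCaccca
Hist2h2aa1: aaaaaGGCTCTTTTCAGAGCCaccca
Hist1h4i: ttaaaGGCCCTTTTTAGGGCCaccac
Hist1h2bg: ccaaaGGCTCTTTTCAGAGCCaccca
On mm10 these windows were chr13:23739507-23739532 on the plus strand for Hist1h1c, chr13:21810893-21810918 on the plus strand for Hist1h2ao and chr11:58955167-58955192 on the plus strand for Hist3h2a. The windows of Hist2h2aa1, Hist1h4i and Hist1h2bg were chr3:96246027-96246052 on the plus strand, chr13:22040961-22040986 on the minus strand and chr13:23571838-23571863 on the plus strand. All 6 lay in the 3′ untranslated region, between 24 and 58 bases after the stop codon. The same 16 bases stood in Hist1h1c, Hist1h2ao, Hist3h2a, Hist2h2aa1 and Hist1h2bg, a form found in 26 members, whereas Hist1h4i had a form found in 2. With a search of the first 200 bases after the stop codon, 46 of the 52 members with at least 30 annotated bases there held the stem-loop (88.46%), against 7 of 20956 other genes (0.0334%).

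RefSeq promoter windows of GRCm38.p6, from 250 bases before to 50 bases after the transcript start, were available for 62 of the 67 members, with 63 windows in all since Hist1h2be had 2. They were searched on both strands for the octamer ATTTGCAT, for CCAAT and for TATAAA. The octamer, known as a binding site of the transcription factor Oct-1, stood in 14 of 63 member windows (22.22%), against 1.735% of all 32851 windows. It was found in 7 of 18 H2A and 7 of 17 H2B windows and in none of the H1, H3 or H4 windows. CCAAT stood in 54 member windows (85.71%, against 37.41% of all windows), with only 3 of 12 H4 windows holding it, and TATAAA in 35 (55.56%, against 13.62%). The windows of Hist1h2bg and Hist3h2a are shown because both genes differed between sorted groups and both hold the octamer. Other genes that differed between groups, among them Hist1h1c, Hist1h2ao and Hist1h2ap, did not hold it. Capitals mark the octamer, CCAAT and TATAAA or their reverse complements.
Hist1h2bg: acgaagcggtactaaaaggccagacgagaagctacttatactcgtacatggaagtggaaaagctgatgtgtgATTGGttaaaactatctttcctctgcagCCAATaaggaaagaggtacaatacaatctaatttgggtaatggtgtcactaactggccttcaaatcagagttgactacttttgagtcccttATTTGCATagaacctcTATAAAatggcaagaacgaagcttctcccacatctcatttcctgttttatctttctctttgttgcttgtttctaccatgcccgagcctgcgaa
Hist3h2a: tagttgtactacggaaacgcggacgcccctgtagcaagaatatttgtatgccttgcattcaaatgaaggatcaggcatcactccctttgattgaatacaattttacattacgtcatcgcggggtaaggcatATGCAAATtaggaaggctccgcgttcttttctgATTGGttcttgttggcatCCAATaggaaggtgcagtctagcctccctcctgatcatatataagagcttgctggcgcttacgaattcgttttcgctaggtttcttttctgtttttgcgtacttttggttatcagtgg
The Hist1h2bg window was chr13:23571150-23571449 and the Hist3h2a window chr11:58954435-58954734, both on the plus strand. A match of letters is a description of the window and says nothing of binding in these cells.

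Histone transcripts were a small part of each library and came from few genes. Library totals ran between 12806100 and 41769000 estimated counts, given to 6 digits, and the 67 genes held 0.0182% to 0.0307% of them. In transcripts-per-million units (TPM), which allows levels of different genes to be set side by side, 9 members averaged at least 10 over the 10 libraries, while 57 averaged under 5 and 32 under 1. The 10 members of highest mean TPM made up 87.3% of the summed mean TPM. Only 27 members had a count in all 10 libraries.

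Hist1h1c, which encodes linker histone H1.2, led with a mean of 89.1 TPM. Hist1h2ao and Hist1h2ap, H2A genes with the same coding sequence, followed with 70.0 TPM each, ahead of the H2B gene Hist1h2bc with 59.6 TPM and the H2A gene Hist3h2a with 44.8 TPM. The identical H2A genes Hist2h2aa1 and Hist2h2aa2 had 30.7 TPM each, the H4 gene Hist1h4i had 23.2 TPM, and the H2B genes Hist1h2bg and Hist3h2ba had 14.01 and 7.37 TPM. Below these, Hist1h2ae, an H2A gene, had 3.50 TPM and the identical H4 genes Hist1h4m and Hist1h4n had 3.28 TPM each. The members known as testis histones were at the bottom of the order. Hist1h1t had a count in 1 library, and Hist1h2aa and Hist1h2ba had none in any library, where a count of 0 allows up to 3 counts per library by counting error alone.

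The histone types were far from equal in these libraries. H2A genes made up between 34.8% and 65.3% of the members' TPM (median 50.6%), H1 genes between 14.3% and 27.0% (median 18.6%) and H2B genes between 11.6% and 25.1% (median 18.3%). H4 genes gave 5.84% to 15.3% (median 7.92%). H3 genes gave the least in all 10 libraries, with 1.61% to 3.77% (median 2.24%), although 12 of the 67 genes encode H3. No H3 gene was among the 12 members of highest mean TPM.

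Adjacent genes also differed in level. H2A and H2B genes stand head to head in 12 pairs, transcribed away from a shared stretch of 175 to 305 bases. Hist1h2bc had 59.6 TPM, against 1.38 TPM for Hist1h2ac across 250 bases. Hist1h2ao had 70.0 TPM, against 1.40 TPM for Hist1h2bq across 267 bases. Hist1h2bg had 14.01 TPM, against 3.50 TPM for Hist1h2ae across 175 bases. In these pairs the larger mean was 43.1, 50.1 and 4.01 times the smaller, whereas Hist1h2ag and Hist1h2bj, 269 bases apart, differed by 1.28 times. These are levels as the counting divided reads among copies.

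Near-identical copies limit what can be said of a single gene. The counting index held coding sequences, and in 31-base words, the default word length of the counting program, 12 members had no word of their own and 32 had their own words for under 15% of the coding sequence, while 15 members had them for over 50%. Hist1h1c was distinct for 71.3% of its words, Hist3h2a for 80.99% and Hist3h2ba for 86.6%. Hist1h4i was distinct for 20.9% and Hist1h2bg for 11.4%. Hist1h2bc had no word of its own and shared 78.3% of the words of Hist1h2bg. Hist1h2ao, Hist1h2ap, Hist2h2aa1 and Hist2h2aa2 had none either, and the H2A genes shared words with H2afj and H2afx, which encode H2A variants and are not members. Identical pairs are therefore given as sums below, and single H2A, H2B and H4 genes with few words of their own are uncertain.

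Abundant and rare members were found among long and short annotated transcript ends alike. In 23 members the longest transcript with a stem-loop ran over 100 bases past it, with a median of 1.85 mean TPM and 5 members of at least 5 TPM. In 23 others it ended within 100 bases, with a median of 1.54 and 4 members of at least 5 TPM. These 4 were the identical pairs Hist1h2ao with Hist1h2ap and Hist2h2aa1 with Hist2h2aa2, none of which had words of its own. No stem-loop was found in 21 members, whose median was 0.537 TPM, with 1 member, Hist1h2bc, at 5 TPM or more. Of these 21, 13 had no annotated bases after the stop codon, so there was no sequence to search in them. The annotated end ran 840 bases past the stem-loop in Hist1h1c and 1643 bases in Hist3h2a, but 31 bases in Hist1h2ao and 35 in Hist2h2aa1. Hist1h2bc had an annotated 3′ end of 742 bases in which no stem-loop was found.

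**Figure D1:**
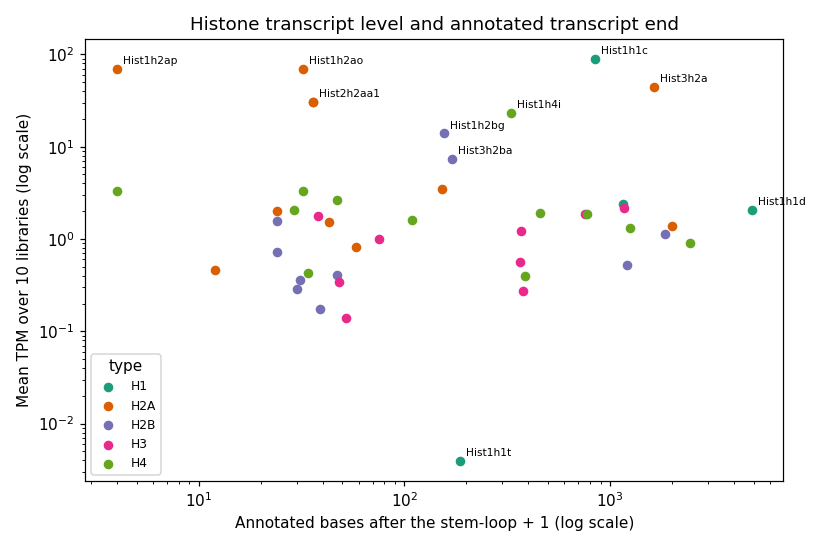
Mean TPM over the 10 libraries (vertical, log scale) against the annotated bases after the stem-loop plus 1 (horizontal, log scale) for the 46 members in which a stem-loop was found, each point a gene coloured by histone type. Abundant genes lie at both ends of the horizontal axis, with Hist1h2ao at 31 bases and Hist3h2a at 1643. Those at the short end are pairs of genes with identical coding sequences.

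In colonic MHCII+ against splenic MHCII+ cells, single histone genes differed in both directions, while the total differed between libraries of the groups in CPM and not in TPM. Hist1h1c and Hist3h2a were higher in the colonic libraries, the H2B gene Hist1h2bc was higher and the H2B gene Hist1h2bg lower, and 4 rare genes were lower. Of the 48 members that passed the filter on low counts, 8 were called at an edgeR adjusted p under 0.05, against 60.3% of all 15076 genes tested. Of these, 3 were higher (31.6% of all genes) and 5 lower (28.7% of all genes), and the share called was below that of all genes. With identical copies merged, so that Hist1h2bq and Hist1h2br count once, 7 of 44 were called. Of the 67 members, 57 averaged under 5 TPM, and the part of low counts in the smaller share was not tested. The median log2 fold change of the 48 was -0.35, against 0.02 over all genes tested. The 67 genes summed to 262.5 and 259.7 CPM, in counts-per-million units, in colonic MHCII+ libraries and to 212.5 and 201.9 CPM in splenic MHCII+ libraries, a log2 ratio of 0.33. The sums were 536.3 and 494.0 TPM in colonic and 511.9 and 509.1 TPM in splenic MHCII+ libraries, which overlapped. TPM values are per length and also lack the TMM scaling between libraries that the CPM values have. The median log2 fold change over all genes was 0.018 in edgeR and -0.131 in limma on TPM. Hist2h2aa1 and Hist2h2aa2, of equal coding length, had a summed log2 ratio of 0.516 in CPM and 0.311 in TPM. The part of scaling in these shifts was not tested. In bulk libraries, fewer cells of a type and less RNA per cell cannot be told apart.

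Of the 5 types, linker histones had the log2 ratio farthest from 0, at 0.72. The 6 H1 genes summed to 125.8 and 107.4 CPM in colonic MHCII+ libraries, against 77.3 and 63.9 CPM in splenic MHCII+ libraries. Hist1h1c alone had 118.1 and 103.8 CPM in colonic MHCII+ libraries and 71.7 and 59.3 CPM in splenic MHCII+ libraries. Both colonic libraries stood above both splenic ones, with means of 110.9 ± 10.1 and 65.5 ± 8.77 CPM (SD, n = 2 each) and a log2 fold change of 0.76 ± 0.13 (SE, edgeR adjusted p = 0.00244). This call held in each alternative fit. The other 5 H1 genes summed to 7.77 and 3.65 CPM in colonic and 5.62 and 4.59 CPM in splenic MHCII+ libraries, which overlapped.

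Among H2A genes, Hist3h2a had 19.6 and 20.1 CPM in colonic MHCII+ libraries and 13.3 and 13.7 CPM in splenic MHCII+ libraries, without overlap (log2 fold change 0.55 ± 0.15 SE, edgeR adjusted p = 0.0185). Hist3h2a overlaps the gene Trim17 on the same strand, and its call was lost without splenic MHCII+ library 1 (adjusted p = 0.102), without splenic MHCII+ library 2 (0.0829) and with limma on TPM (0.0578), in edgeR and limma fits that kept its direction. Hist1h2ao and Hist1h2ap together had 14.7 and 32.1 CPM in colonic MHCII+ libraries, against 31.6 and 30.9 CPM in splenic MHCII+ libraries. In CPM the colonic libraries lay on both sides of the splenic ones, and each gene was not called (log2 fold change -0.44 ± 0.35 SE, edgeR adjusted p = 0.310). In summed TPM, without TMM scaling, the pair had 39.55 and 75.3 in colonic and 91.0 and 88.6 in splenic MHCII+ libraries, where both colonic libraries were lower. Without colonic MHCII+ library 2 each was called lower (log2 fold change -1.10, edgeR adjusted p = 0.0039). Hist2h2aa1 and Hist2h2aa2 together had 29.9 and 41.1 CPM in colonic and 22.7 and 26.9 CPM in splenic MHCII+ libraries, without overlap, and were not called (log2 fold change 0.51 ± 0.21 SE each, edgeR adjusted p = 0.0781). They were called higher without colonic MHCII+ library 1 (log2 fold change 0.69, edgeR adjusted p = 0.0219). All 18 H2A genes summed to 69.3 and 98.1 CPM in colonic and 75.1 and 78.7 CPM in splenic MHCII+ libraries, which overlapped. Hist1h2ad, a rare H2A gene without words of its own, was called lower, with 0.243 and 0 CPM in colonic and 1.96 and 0.982 CPM in splenic MHCII+ libraries (log2 fold change -3.40 ± 1.04 SE, edgeR adjusted p = 0.0284).

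H2B genes differed in opposite directions. Hist1h2bc had 38.0 and 27.2 CPM in colonic MHCII+ libraries and 16.5 and 14.5 CPM in splenic MHCII+ libraries, a log2 fold change of 1.08 ± 0.20 (SE, edgeR adjusted p = 0.00355, with 0.0506 in limma on TPM). Hist1h2bg had 2.65 and 1.72 CPM in colonic MHCII+ libraries and 13.9 and 10.96 CPM in splenic MHCII+ libraries, a log2 fold change of -2.48 ± 0.31 (SE, edgeR adjusted p = 0.000658). For both genes every colonic library stood on the same side of every splenic one. Summed over this pair, which shares most of its words, the levels were 40.7 and 28.9 CPM in colonic and 30.4 and 25.5 CPM in splenic MHCII+ libraries, which overlapped. All 18 H2B genes summed to 47.0 and 35.1 CPM in colonic and 40.7 and 35.8 CPM in splenic MHCII+ libraries, which overlapped too. Without Hist1h2bc, the other 17 summed to 8.97 and 7.84 CPM in colonic and 24.2 and 21.3 CPM in splenic MHCII+ libraries. The identical H2B genes Hist1h2bq and Hist1h2br together had 0.291 and 0.345 CPM in colonic and 2.17 and 2.48 CPM in splenic MHCII+ libraries, and each was called lower (log2 fold change -2.91 ± 0.72 SE, edgeR adjusted p = 0.0125). Hist3h2ba, the H2B gene with most words of its own among the abundant ones, had 2.70 and 1.93 CPM in colonic and 3.12 and 3.11 CPM in splenic MHCII+ libraries and was not called (log2 fold change -0.42 ± 0.40 SE, edgeR adjusted p = 0.390).

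The sums of the other core histones, H3 and H4, overlapped between the groups in CPM, and that of H4 did not in TPM. H3 genes summed to 8.56 and 5.20 CPM in colonic and 5.96 and 5.95 CPM in splenic MHCII+ libraries. H4 genes summed to 11.8 and 13.96 CPM in colonic and 13.4 and 17.6 CPM in splenic MHCII+ libraries. In TPM, without TMM scaling, H4 genes summed to 49.8 and 50.3 in colonic and 60.97 and 77.7 in splenic MHCII+ libraries. Both colonic libraries were lower. Hist1h4i had 6.40 and 7.09 CPM in colonic and 7.45 and 9.48 CPM in splenic MHCII+ libraries and was not called (log2 fold change -0.33 ± 0.24 SE, edgeR adjusted p = 0.266). The identical H4 genes Hist1h4m and Hist1h4n together had 0.953 and 1.73 CPM in colonic and 2.19 and 2.51 CPM in splenic MHCII+ libraries, without overlap, and were not called (log2 fold change -0.85 ± 0.63 SE each, edgeR adjusted p = 0.279). With limma on TPM, Hist1h4n was called lower (log2 fold change -0.93, adjusted p = 0.04). The identical H3 genes Hist2h3c1 and Hist2h3c2 together had 0.988 and 2.96 CPM in colonic and 0.637 and 0.551 CPM in splenic MHCII+ libraries, also without overlap, and with the copies merged the pair was not called (log2 fold change 1.73 ± 0.71 SE, edgeR adjusted p = 0.0737). Hist1h4c, a rarer H4 gene, had 0.239 and 0.0753 CPM in colonic and 0.715 and 1.35 CPM in splenic MHCII+ libraries and was called lower (log2 fold change -2.66 ± 0.87 SE, edgeR adjusted p = 0.0356). The calls of Hist1h4c, Hist1h2ad, Hist1h2bq and Hist1h2br were each lost without splenic MHCII+ library 1 (edgeR adjusted p = 0.0804, 0.165, 0.0804 and 0.0804) and without library 2 (0.244, 0.0513, 0.101 and 0.101). The call of Hist1h4c was also lost without colonic MHCII+ library 2 (edgeR adjusted p = 0.122) and in DESeq2 (0.0542), and those of Hist1h2bq and Hist1h2br without colonic MHCII+ library 1 (0.0561). Without splenic MHCII+ library 1, and likewise without library 2, 3 members were called.

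**Figure D2:**
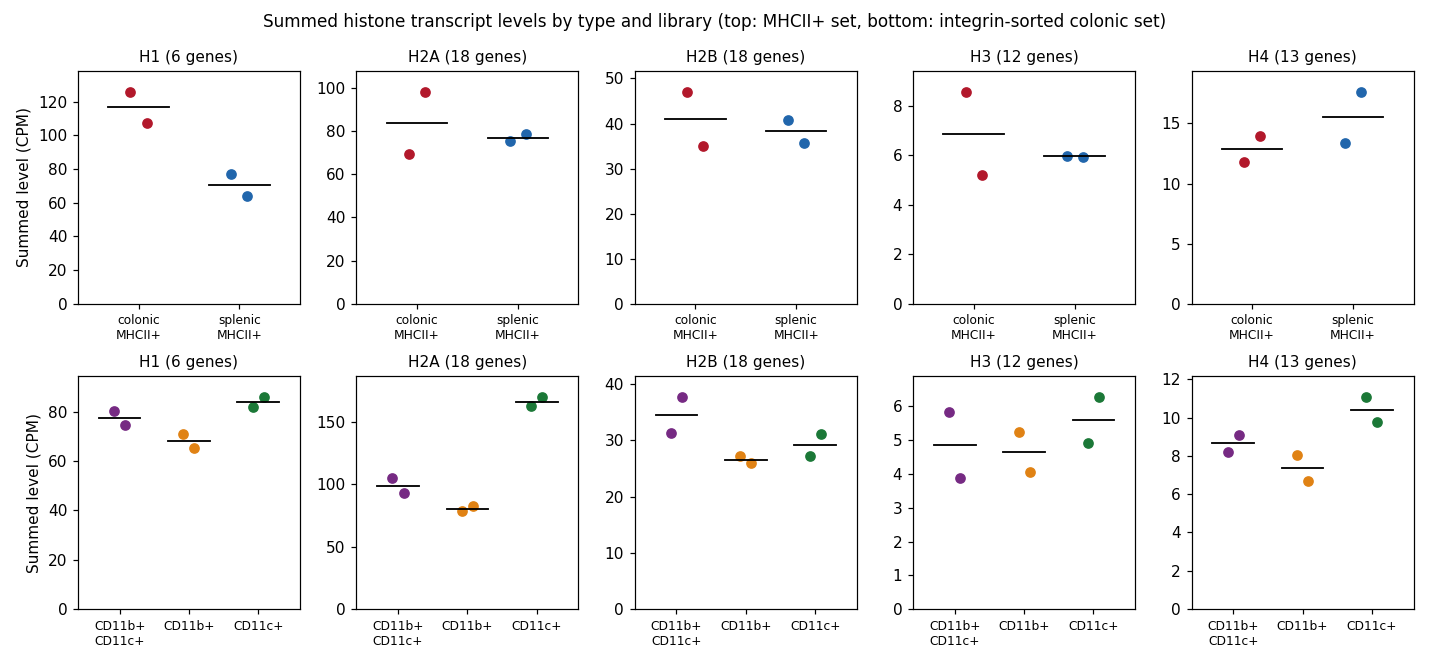
Summed levels of each histone type (CPM, vertical, from 0), each point a library and each line a group mean, for colonic and splenic MHCII+ cells (top) and for colonic CD11b+CD11c+, CD11b+ and CD11c+ cells (bottom). H1 is apart between colonic MHCII+ libraries (125.8 and 107.4) and splenic ones (77.3 and 63.9), and H2A between CD11c+ libraries (162.4 and 169.6) and the other integrin groups.

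Among colonic integrin-sorted cells, summed H2A transcripts were lower in CD11b+ and in CD11b+CD11c+ cells than in CD11c+ cells. The sums of the other types differed less. All members summed to 230.1 and 218.0 CPM in CD11b+CD11c+ libraries, 189.7 and 184.4 CPM in CD11b+ libraries and 287.4 and 302.8 CPM in CD11c+ libraries, with no overlap between any pair of groups. H2A genes summed to 104.6 and 92.6 CPM in CD11b+CD11c+, 78.2 and 82.3 CPM in CD11b+ and 162.4 and 169.6 CPM in CD11c+ libraries. The log2 ratio over CD11c+ was -0.75 for CD11b+CD11c+ and -1.05 for CD11b+ cells. With the variant genes H2afj and H2afx added, which share words with them, the sums were 158.8 and 139.1 CPM in CD11b+CD11c+, 136.3 and 133.8 CPM in CD11b+ and 223.9 and 228.0 CPM in CD11c+ libraries. Again the CD11c+ libraries stood apart. Without Hist1h2ao and Hist1h2ap, the H2A log2 ratio over CD11c+ was -0.47 for CD11b+CD11c+ and -0.52 for CD11b+ cells. In the same order, the ratios were -0.27 and -0.50 for H4 and -0.11 and -0.30 for H1. They were -0.205 and -0.271 for H3, which overlapped, and 0.24 and -0.14 for H2B. Members outside the 10 of highest mean TPM had ratios of -0.40 and -0.60, without overlap. The 3 comparisons below share libraries and 1 estimate of the spread, and 24 members passed their filter on low counts, all of which had also passed it in the MHCII+ set. In neither set did 19 members pass.

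In CD11b+ against CD11c+ cells, 5 of the 24 members were called and all were lower, against 52.0% of all 14225 genes called in either direction and 25.0% called lower. None was called higher, against 27.0% of all genes, where 6 members had an unadjusted edgeR p under 0.05. Without CD11c+ library 1, and likewise without CD11b+ library 1, 3 members were called, all lower. With identical copies merged, so that Hist1h2ao and Hist1h2ap count once, 4 of 22 were called. The median log2 fold change of the 24 was -0.55, against -0.02 over all genes. In CD11b+CD11c+ against CD11c+ cells, 4 of 24 were called, all lower, against 43.0% of all genes in either direction and 22.5% lower, and none higher, against 20.4%. There the median of the members was -0.34, against -0.09 over all genes, and 4 of 22 were called with identical copies merged. In CD11b+CD11c+ against CD11b+ cells, edgeR called none of the 24, against 9.63% of all genes, 3.79% higher and 5.84% lower, with 3 members at an unadjusted p under 0.05 and 2 called by DESeq2. The median was 0.23, against 0.01 over all genes. Most members averaged under 5 TPM, and the part of low counts in these shares was not tested.

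**Figure D3:**
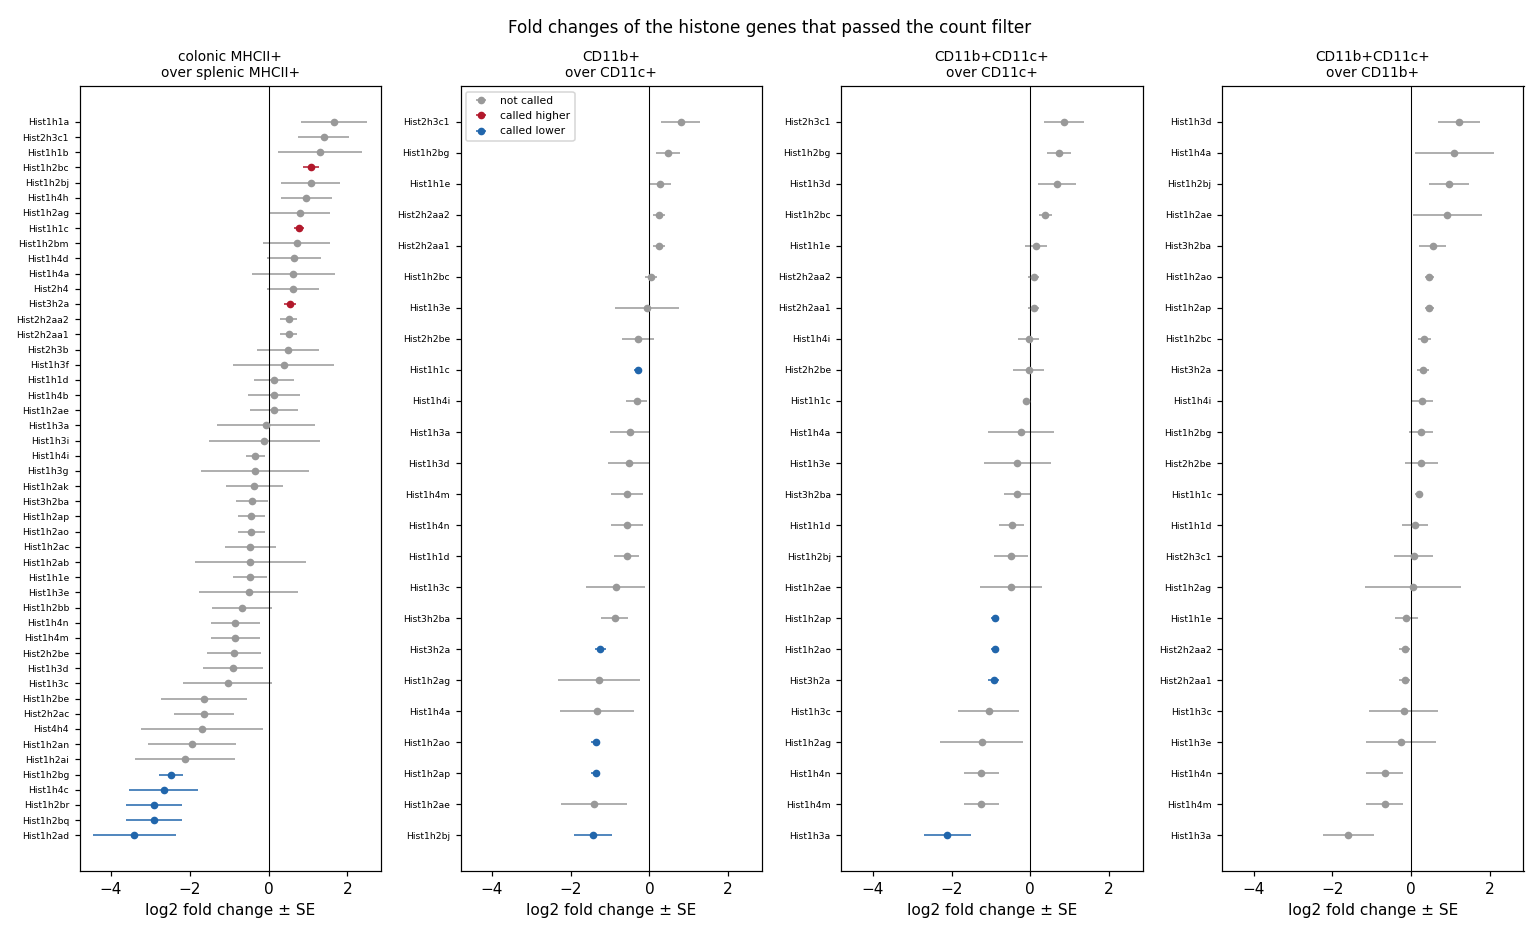
Log2 fold change (horizontal) with its standard error for every member that passed the count filter in each of the 4 comparisons, called members in red (higher) and blue (lower). In CD11b+ over CD11c+ cells the 5 called members are all lower, Hist1h2ao and Hist1h2ap at -1.36.

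As the counting divided reads among copies, the identical H2A genes Hist1h2ao and Hist1h2ap carried most of the H2A difference. Together they had 65.8 and 57.7 CPM in CD11b+CD11c+ libraries, 42.7 and 46.7 CPM in CD11b+ libraries and 111.2 and 118.8 CPM in CD11c+ libraries. The 3 groups did not overlap, with CD11c+ highest and CD11b+ lowest. Each gene fell by 1.36 on the log2 scale in CD11b+ against CD11c+ cells (SE 0.11, edgeR adjusted p = 0.000494) and by 0.90 in CD11b+CD11c+ against CD11c+ cells (SE 0.11, edgeR adjusted p = 0.00197). Both calls held in every alternative fit, none of which divided reads anew between these and other H2A genes. In CD11b+CD11c+ against CD11b+ cells each had a log2 fold change of 0.46 ± 0.11 (SE) and missed the threshold (edgeR adjusted p = 0.0539), and the adjusted p was 0.0126 in DESeq2 and between 0.0126 and 0.311 over all alternatives. The 16 other H2A genes summed to 38.9 and 34.9 CPM in CD11b+CD11c+, 35.5 and 35.6 CPM in CD11b+ and 51.2 and 50.9 CPM in CD11c+ libraries.

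Hist3h2a, the H2A gene with most words of its own among the abundant ones, followed the same order of groups at its own level. It had 16.2 and 12.9 CPM in CD11b+CD11c+ libraries, 10.8 and 12.6 CPM in CD11b+ libraries and 27.8 and 27.7 CPM in CD11c+ libraries. Both CD11c+ libraries stood well above the rest, and both CD11b+CD11c+ libraries stood above both CD11b+ libraries, by little for the closest pair. The log2 fold change was -1.24 ± 0.15 in CD11b+ against CD11c+ cells (SE, edgeR adjusted p = 0.00145) and -0.93 ± 0.15 in CD11b+CD11c+ against CD11c+ cells (SE, edgeR adjusted p = 0.0044), and both calls held in each alternative fit. In CD11b+CD11c+ against CD11b+ cells it was 0.31 ± 0.15 (SE, edgeR adjusted p = 0.263). The identical genes Hist2h2aa1 and Hist2h2aa2 did not follow this order. Together they had 19.3 and 18.9 CPM in CD11b+CD11c+, 21.6 and 21.1 CPM in CD11b+ and 17.6 and 18.6 CPM in CD11c+ libraries, and neither was called in any of the 3 comparisons (edgeR adjusted p between 0.188 and 0.670).

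**Figure D4:**
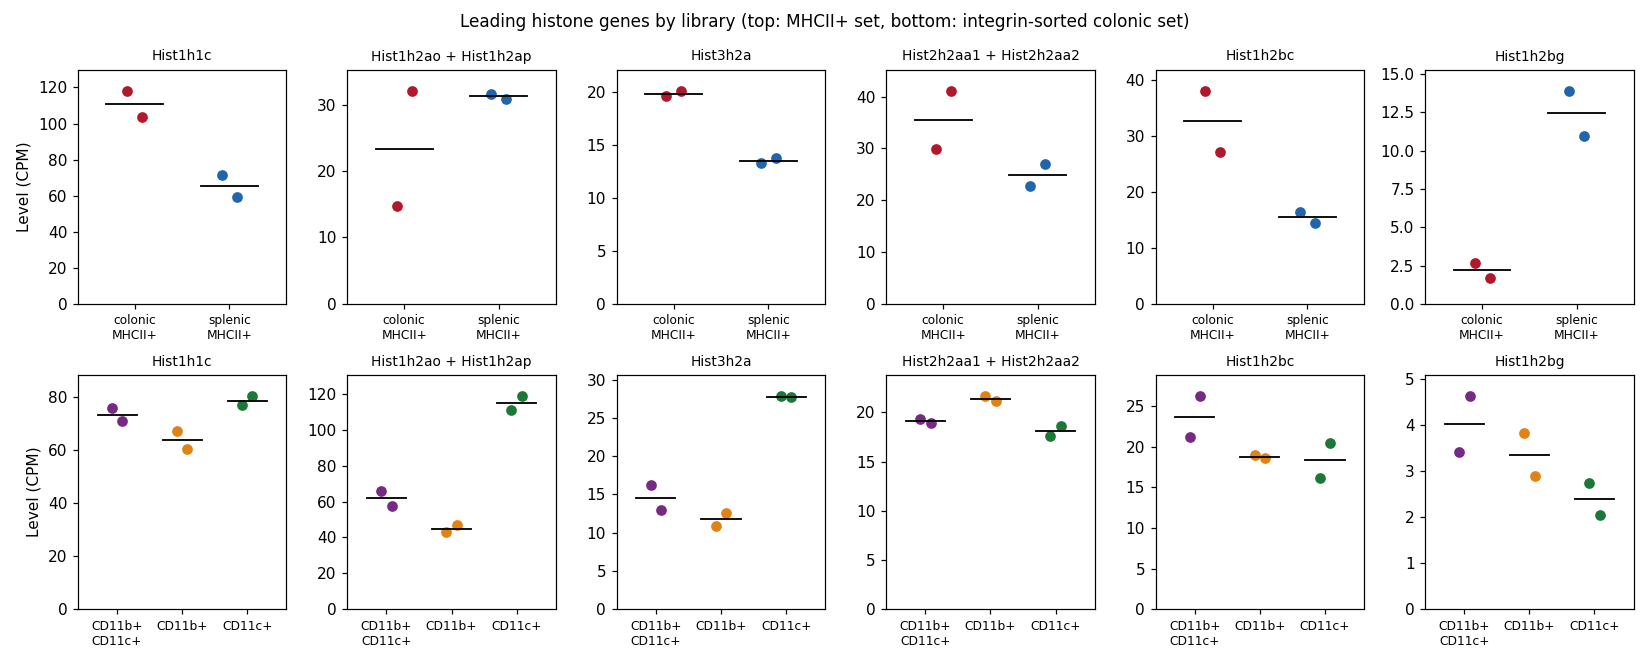
Levels of leading histone genes (CPM, vertical, from 0), each point a library and each line a group mean, in colonic and splenic MHCII+ cells (top) and in colonic CD11b+CD11c+, CD11b+ and CD11c+ cells (bottom), with identical genes summed. Hist1h2ao plus Hist1h2ap reaches 111.2 and 118.8 CPM in CD11c+ libraries, and Hist1h2bg is at 2.65 and 1.72 CPM in colonic against 13.9 and 10.96 CPM in splenic MHCII+ libraries.

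Linker histone levels differed less between the integrin-sorted groups. Hist1h1c had 75.7 and 70.8 CPM in CD11b+CD11c+ libraries, 67.1 and 60.5 CPM in CD11b+ libraries and 76.8 and 80.3 CPM in CD11c+ libraries. The groups did not overlap, with CD11b+ lowest. In CD11b+ against CD11c+ cells it was called lower with a log2 fold change of -0.30 ± 0.10 (SE, edgeR adjusted p = 0.0392), a call lost with limma on TPM (adjusted p = 0.142), with all 10 libraries in the edgeR fit (0.0593) and without either library of CD11b+ or CD11c+ cells (0.0701 to 0.154). It was not called in CD11b+CD11c+ against CD11c+ cells (log2 fold change -0.10, edgeR adjusted p = 0.428) or against CD11b+ cells (0.20, edgeR adjusted p = 0.254).

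H2B, H3 and H4 transcripts held few calls in the integrin-sorted cells. H2B genes summed to 31.3 and 37.7 CPM in CD11b+CD11c+, 27.2 and 25.9 CPM in CD11b+ and 27.3 and 31.2 CPM in CD11c+ libraries. Hist1h2bc had 21.2 and 26.3 CPM in CD11b+CD11c+, 19.0 and 18.6 CPM in CD11b+ and 16.2 and 20.5 CPM in CD11c+ libraries and was not called in any of the 3 comparisons (edgeR adjusted p between 0.105 and 0.842). Hist1h2bg, at 3.42 and 4.63 CPM in CD11b+CD11c+, 3.83 and 2.89 CPM in CD11b+ and 2.74 and 2.04 CPM in CD11c+ libraries, was not called either (edgeR adjusted p between 0.0942 and 0.646). The rare H2B gene Hist1h2bj had 0.311 and 0.270 CPM in CD11b+ and 0.695 and 0.972 CPM in CD11c+ libraries and was called lower (log2 fold change -1.43 ± 0.47 SE, edgeR adjusted p = 0.0441), a call lost without either library of CD11b+ or CD11c+ cells (0.103 to 0.205), without the count filter (0.108) and in DESeq2 (0.173). Hist3h2ba had 2.98 and 2.41 CPM in CD11b+CD11c+, 1.31 and 2.34 CPM in CD11b+ and 3.64 and 3.20 CPM in CD11c+ libraries, with an edgeR adjusted p of 0.0686 in CD11b+ against CD11c+ cells.

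H3 genes summed to 5.83 and 3.89 CPM in CD11b+CD11c+, 5.23 and 4.06 CPM in CD11b+ and 4.93 and 6.27 CPM in CD11c+ libraries, with overlap between all groups. In TPM the H3 sums of CD11b+ libraries, 10.4 and 8.18, lay below those of CD11c+ libraries, 11.3 and 12.3. The identical H3 genes Hist2h3c1 and Hist2h3c2 together had 2.17 and 1.76 CPM in CD11b+CD11c+, 2.23 and 1.61 CPM in CD11b+ and 1.07 and 1.65 CPM in CD11c+ libraries, and with the copies merged the pair was not called in any of the 3 comparisons (edgeR adjusted p between 0.247 and 0.935). The H3 gene Hist1h3a had 0.299 and 0.0915 CPM in CD11b+CD11c+ libraries and 0.749 and 0.853 CPM in CD11c+ libraries and was called lower (log2 fold change -2.10 ± 0.60 SE, edgeR adjusted p = 0.0331). That call was lost without CD11c+ library 1 (0.111) or 2 (0.106), without CD11b+CD11c+ library 2 (0.184), without the count filter (0.074), in DESeq2 (0.0989) and with all 10 libraries in the edgeR fit (0.291). H4 genes summed to 8.21 and 9.10 CPM in CD11b+CD11c+, 8.08 and 6.68 CPM in CD11b+ and 11.1 and 9.77 CPM in CD11c+ libraries. In CPM no pair of groups overlapped, with CD11c+ highest, and in TPM the CD11b+CD11c+ libraries overlapped both other groups. Hist1h4i had 3.86 and 5.46 CPM in CD11b+CD11c+, 3.71 and 3.94 CPM in CD11b+ and 5.43 and 4.02 CPM in CD11c+ libraries and was not called in these comparisons (edgeR adjusted p between 0.348 and 0.921). Hist1h4m and Hist1h4n together had 0.780 and 1.00 CPM in CD11b+CD11c+, 1.66 and 1.19 CPM in CD11b+ and 2.20 and 1.93 CPM in CD11c+ libraries, with no overlap between any pair of groups. Neither gene was called (edgeR adjusted p between 0.0622 and 0.426). With the copies merged, the pair was called lower in CD11b+CD11c+ against CD11c+ cells (log2 fold change -1.18 ± 0.36 SE, edgeR adjusted p = 0.0387), as Hist1h4n was with limma on TPM (log2 fold change -0.995, adjusted p = 0.0269).

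Genes that act with the histones were described from lists of histone variants, histone RNA factors, chaperones, S phase genes and mitosis genes. Their counts stand beside the shares of all genes called, which were 27.0% higher and 25.0% lower in CD11b+ against CD11c+ cells, 20.4% and 22.5% in CD11b+CD11c+ against CD11c+ cells, 3.79% and 5.84% in CD11b+CD11c+ against CD11b+ cells, and 31.6% and 28.7% in colonic against splenic MHCII+ cells. Of 22 S phase genes, 17 fell and none rose in CD11b+ against CD11c+ cells (median log2 fold change -0.89, against -0.02 over all genes), 15 fell and none rose in CD11b+CD11c+ against CD11c+ cells (median -0.61, against -0.09), and 8 rose and none fell in CD11b+CD11c+ against CD11b+ cells (median 0.39, against 0.01). Mcm6, a subunit of the replicative helicase, averaged 77.5 ± 2.48 CPM in CD11b+CD11c+, 51.8 ± 0.951 CPM in CD11b+ and 136.6 ± 4.22 CPM in CD11c+ libraries (SD, n = 2 each). In colonic against splenic MHCII+ cells 1 of the 22 rose and 8 fell (median -0.30, against 0.02). Mcm5, of the same helicase, fell, with 77.9 ± 6.16 CPM in colonic and 106.6 ± 13.03 CPM in splenic MHCII+ libraries.

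Of 20 mitosis genes, 17 fell and none rose in CD11b+ against CD11c+ cells, 7 fell and 1 rose in CD11b+CD11c+ against CD11c+ cells, 6 rose and none fell in CD11b+CD11c+ against CD11b+ cells, and 1 rose and 12 fell in colonic against splenic MHCII+ cells. Their median log2 fold changes in these comparisons were -1.003, -0.42, 0.62 and -0.67, against -0.02, -0.09, 0.01 and 0.02 over all genes. The 7 of 20 that fell in CD11b+CD11c+ against CD11c+ cells stand against 22.5% of all genes. Top2a, the topoisomerase that untangles copied DNA, averaged 136.8 ± 2.30 CPM in CD11b+CD11c+, 75.3 ± 3.98 CPM in CD11b+ and 210.6 ± 14.4 CPM in CD11c+ libraries. Mki67, which encodes the proliferation antigen Ki-67, did not follow that order, with 662.8 ± 23.7 CPM in CD11b+CD11c+, 372.4 ± 11.1 CPM in CD11b+ and 416.3 ± 51.2 CPM in CD11c+ libraries.

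Of 11 genes for histone variants, which are made outside S phase as well, 4 rose and 3 fell in colonic against splenic MHCII+ cells (median log2 fold change 0.39), 3 rose and 4 fell in CD11b+ against CD11c+ cells (median 0.03), 1 rose and 4 fell in CD11b+CD11c+ against CD11c+ cells (median -0.06), and 2 rose and 1 fell in CD11b+CD11c+ against CD11b+ cells (median 0.11). Over all genes these medians were 0.02, -0.02, -0.09 and 0.01, and in colonic against splenic MHCII+ cells the variants' counts were near the 31.6% and 28.7% of all genes. In CD11b+ against CD11c+ cells, the 3 of 11 that rose were near 27.0% of all genes, and the 4 that fell stand against 25.0%. The shares were 20.4% and 22.5% in CD11b+CD11c+ against CD11c+ cells, and 3.79% and 5.84% in CD11b+CD11c+ against CD11b+ cells. H2afz, which encodes the H2A variant H2A.Z, averaged 468.7 ± 44.3 CPM in CD11b+CD11c+, 332.4 ± 22.2 CPM in CD11b+ and 870.7 ± 6.64 CPM in CD11c+ libraries. Its log2 fold change was -1.39 ± 0.11 in CD11b+ against CD11c+ cells (SE, edgeR adjusted p = 0.000429) and -0.89 ± 0.11 in CD11b+CD11c+ against CD11c+ cells (SE, edgeR adjusted p = 0.00178). In MHCII+ cells the H3.3 genes parted: H3f3b averaged 1465 ± 28.3 CPM in colonic and 874.7 ± 218 CPM in splenic libraries and rose (edgeR adjusted p = 0.00994), and H3f3a averaged 480.9 ± 39.2 CPM in colonic and 784.8 ± 22.7 CPM in splenic libraries and fell (edgeR adjusted p = 0.0015).

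Of 12 genes for histone RNA transcription, processing and decay, none rose and 4 fell in colonic against splenic MHCII+ cells (median log2 fold change -0.19), 1 rose and 4 fell in CD11b+ against CD11c+ cells (median -0.16), 1 rose and 3 fell in CD11b+CD11c+ against CD11c+ cells (median -0.02), and 1 rose and none fell in CD11b+CD11c+ against CD11b+ cells (median 0.06). Over all genes these medians were 0.02, -0.02, -0.09 and 0.01, and the 4 of 12 that fell in colonic against splenic MHCII+ cells are near the 28.7% of all genes, as are the 3 of 12 in CD11b+CD11c+ against CD11c+ cells near 22.5%. Casp8ap2, which encodes a protein of the histone locus body, averaged 58.4 ± 4.74 CPM in CD11b+CD11c+, 52.5 ± 3.92 CPM in CD11b+ and 96.8 ± 6.03 CPM in CD11c+ libraries. Cpsf2, a subunit of the cleavage complex that also cuts histone RNA, averaged 50.7 ± 4.80 CPM in colonic and 86.6 ± 0.751 CPM in splenic MHCII+ libraries. Of 12 histone chaperone and deposition genes, 3 rose and 6 fell in colonic against splenic MHCII+ cells (median -0.59), 2 rose and 8 fell in CD11b+ against CD11c+ cells (median -0.37), 2 rose and 5 fell in CD11b+CD11c+ against CD11c+ cells (median -0.25), and 1 rose and none fell in CD11b+CD11c+ against CD11b+ cells (median 0.10), beside the same medians over all genes. That 1 gene was Asf1b, a chaperone of H3 and H4, with 8.95 ± 0.765 CPM in CD11b+CD11c+ and 3.24 ± 0.343 CPM in CD11b+ libraries (edgeR adjusted p = 0.00768).

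Markers of other cell types moved with the groups, and their part in the histone differences was not tested. Itgam, which encodes CD11b, had 694.2 and 793.4 CPM in CD11b+CD11c+, 741.9 and 743.2 CPM in CD11b+ and 25.9 and 40.5 CPM in CD11c+ libraries, in the order their labels give. Itgax, which encodes CD11c, had 679.5 and 771.6 CPM in CD11b+CD11c+, 490.9 and 557.0 CPM in CD11b+ and 783.7 and 945.5 CPM in CD11c+ libraries, so its RNA was also present in the CD11b+ group. Averaged over all 10 libraries, the genes of highest level in the lists were Igha and Jchain for plasma cells, Krt8 and Muc2 for epithelium, S100a9 and Ltf for neutrophils, Cd22 and Cd79a for B cells, Sirpa and Itgae for dendritic cells, Csf1r and Mrc1 for macrophages, Cd4 and Lck for T cells, Col3a1 and Col1a2 for stroma, Alox15 and Ccr3 for eosinophils, and Hbb-bs and Hba-a1 for erythroid cells. The order differed within groups. Tfrc led the erythroid list in every integrin-sorted library (39.5 to 61.1 CPM). Retnlg led the neutrophil list in CD11b+ libraries (287.8 and 245.9 CPM). Flt3 led the dendritic cell list in splenic MHCII+ libraries (445.6 and 417.8 CPM). In colonic against splenic MHCII+ libraries the summed levels, as ranges over libraries, were 14681 to 16481 against 302.0 to 359.2 CPM for 9 plasma cell markers (8 rose, 1 fell), 5040 to 5089 against 14.1 to 17.5 CPM for 9 epithelial markers (9 rose), 267.4 to 366.6 against 5812 to 8154 CPM for 9 neutrophil markers (8 fell) and 85.8 to 93.5 against 1525 to 1631 CPM for 8 B cell markers (8 fell). For 8 dendritic cell markers they were 756.6 to 795.9 against 1509 to 1594 CPM (1 rose, 7 fell), for 9 macrophage markers 2302 to 2596 against 1197 to 1323 CPM (6 rose), for 10 T cell markers 145.9 to 199.2 against 518.2 to 586.6 CPM (8 fell) and for 8 stromal and endothelial markers 1179 to 1470 against 170.1 to 356.8 CPM (6 rose, 2 fell). For 6 eosinophil markers they were 225.2 to 227.5 against 79.3 to 163.9 CPM (2 rose, 2 fell) and for 8 erythroid markers 915.4 to 1363 against 518.4 to 1046 CPM (4 fell). No marker was at 0 in all of these libraries. Of all genes, 31.6% rose and 28.7% fell in this comparison.

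Between CD11b+CD11c+, CD11b+ and CD11c+ libraries the macrophage markers summed to 8918 to 11666, 7760 to 8795 and 285.2 to 1310 CPM (9 of 9 rose in either of the first groups against CD11c+), and the T cell markers to 122.0 to 155.3, 112.3 to 145.7 and 292.0 to 737.1 CPM (9 of 10 fell in either against CD11c+). Cd4 alone made up most of the T cell sums in CD11b+CD11c+ (85.98 and 146.2 CPM) and CD11b+ libraries (92.97 and 125.8 CPM). It went the other way from the 9 that fell, with 8.644 and 50.01 CPM in CD11c+ libraries, and was not called. The dendritic cell markers summed to 806.1 to 996.4, 483.7 to 494.5 and 1849 to 1899 CPM (2 of 8 rose and 6 fell in either against CD11c+) in the same groups. There the plasma cell markers summed to 10262 to 12787, 13373 to 16431 and 29901 to 39830 CPM (6 of 9 fell in either against CD11c+, while 2 rose in CD11b+CD11c+ and 1 in CD11b+ cells). The neutrophil markers summed to 28.3 to 29.6, 357.2 to 387.0 and 0.720 to 0.905 CPM (6 of 9 rose in CD11b+ and 3 in CD11b+CD11c+ cells against CD11c+), with Ngp and Elane, neutrophil granule genes, at 0 in both CD11b+CD11c+ and both CD11c+ libraries. The eosinophil markers summed to 43.1 to 61.7, 406.1 to 438.9 and 12.3 to 18.4 CPM (3 of 6 rose and 1 fell in CD11b+CD11c+, and 4 rose in CD11b+ cells against CD11c+). The stromal and endothelial markers summed to 692.3 to 851.2, 3921 to 4355 and 1273 to 1440 CPM (6 of 8 fell in CD11b+CD11c+ and 7 rose in CD11b+ cells against CD11c+) and the epithelial markers to 572.7 to 655.5, 738.2 to 1099.8 and 429.3 to 514.7 CPM (1 of 9 and 5 of 9 rose). The B cell markers summed to 49.2 to 51.3, 59.6 to 63.8 and 54.1 to 82.2 CPM (1 of 8 rose and 3 fell in CD11b+CD11c+, 1 rose and 1 fell in CD11b+ cells against CD11c+) and the erythroid markers to 75.1 to 89.4, 70.1 to 91.7 and 59.9 to 71.5 CPM (1 of 8 rose in CD11b+CD11c+, 3 rose and 1 fell in CD11b+ cells against CD11c+), with Slc4a1 at 0 in both CD11b+CD11c+ and both CD11c+ libraries. Only 6 of 9 neutrophil, 5 of 6 eosinophil, 7 of 8 B cell and 5 of 8 erythroid markers passed the count filter. The rest were not tested. Of all genes, 27.0% rose and 25.0% fell in CD11b+ against CD11c+ cells. In CD11b+CD11c+ against CD11c+ cells these shares were 20.4% and 22.5%. The CD11c+ libraries differed from each other, with 737.1 and 292.0 CPM of T cell markers and 285.2 and 1310 CPM of macrophage markers in libraries 1 and 2.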

How the data were processed

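The authors' deposited tables give, per the file headers, an estimated count and a TPM value per transcript, with its length and effective length, for 10 libraries. Quantification with kallisto 0.44.0 and the use of sleuth and mm10 are named in the submitters' processing notes; the sources used here name neither its index nor its word length. Directional libraries came from poly(A)-selected RNA, per the labels' protocols. The populations are abbreviated in the titles and were read from the series' design text; both splenic titles carry the same replicate number, so these libraries were numbered in accession order. Transcript IDs were matched to GENCODE M21 (65747 of 66760, 98.48%); counts without a gene were 0.532% to 0.912% of a library and were left out. Of the lengths, 88.9% were multiples of 3, so they are coding lengths. The 67 members and all lists were chosen with earlier results of these data known. Not analysed here are 3 annotated histone pseudogenes.

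For each gene, the estimated counts of its transcripts were added up and the sum was rounded. The 4 MHCII+ and 6 integrin-sorted libraries were fitted separately over all genes with edgeR 4.0.16 (R 4.3.3, filterByExpr, TMM scaling, quasi-likelihood F test, Benjamini-Hochberg adjustment, called at adjusted p under 0.05). The filter passed 15076 and 14225 genes. The fits were also run on simulated counts with the same spread for every gene and no reads shared between copies. That run therefore does not test calls of genes that share reads. CPM values use TMM-scaled library sizes within a set and are not compared across sets. TPM values are as deposited, without TMM scaling. Sums by type carry no test. Alternatives used DESeq2 1.42.0 and limma 3.58.1 (log2(TPM + 0.5)), other scalings, no count filter, all 10 libraries, each library left out, a replicate block and identical copies merged. Named members are the 12 of highest mean TPM, all called members and the 4 uncalled ones of highest CPM; of each companion list, among the 3 called and 1 uncalled of highest CPM; of each marker list, the 2 of highest CPM. Hist1h2aa, Hist1h2ba, Hist1h1t, Hist1h2ac, Hist1h2ag, Hist1h2be, Hist2h3c1, Hist2h3c2, H2afj, H2afx, Trim17, Ngp, Elane, Slc4a1, Tfrc, Retnlg and Flt3 were named after their values were seen. Libraries of a group differed by more than sampling noise (chi-square per gene 10.8 to 38.5).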

Additional observations from a re-analysis of the deposited data

How the results depend on the processing

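No called value changed direction under any alternative run; some uncalled values near 0 changed sign. In colonic against splenic MHCII+ cells (8 members called, 3 higher, 5 lower), 5 members were called higher with all 10 libraries in 1 fit, and limma on TPM called 1 higher and 9 lower. Leaving out 1 library gave 3 to 11 called, 2 to 5 higher and 1 to 8 lower. The log2 ratio of the summed members was 0.334 in CPM, 0.25 with unscaled totals and 0.013 in summed TPM. The median over all genes moved from 0.018 to 0.146 in DESeq2 and to -0.131 in limma. In CD11b+ against CD11c+ cells (5 called, all lower), the fit over all 10 libraries called 3, all 3 lower, and leaving out 1 library gave 3 to 4 called, 0 to 1 higher and 3 to 4 lower, with 4372 (without CD11b+ library 1) to 6895 genes called in all, against 7392. In CD11b+CD11c+ against CD11c+ cells, leaving out 1 library gave 0 to 1 higher and 3190 (without CD11b+CD11c+ library 2) to 5707 genes in all, against 6110, and the sum ratio was -0.533 with unscaled totals. In CD11b+CD11c+ against CD11b+ cells (none called), 2 members, Hist1h2ao and Hist1h2ap, were called higher with RLE size factors, without the count filter and in DESeq2. With identical copies merged, an alternative chosen after seeing the data, 1 was called higher, and the pair Hist1h4m and Hist1h4n was called lower in CD11b+CD11c+ against CD11c+ cells (edgeR adjusted p = 0.0387). There limma called 834 genes in all, leaving out 1 library 226 (without CD11b+ library 1) to 771, against 1370, and the sum ratio was 0.172 with unscaled totals. Fewer libraries leave fewer degrees of freedom; the cause of the other shifts was not tested. Of the values for named members, 511 kept their side of the threshold, 36 lost a call and 18 gained one.

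The deviations of same-numbered integrin-sorted libraries had correlations of 0.333 (CD11c+ with CD11b+CD11c+), -0.0534 and 0.00442. With 2 libraries per group, these values cannot tell whether same-numbered libraries were prepared together. The main fits did not pair them. With a replicate block, 4 members were called in CD11b+ against CD11c+ cells, 4 in CD11b+CD11c+ against CD11c+ cells and 0 in CD11b+CD11c+ against CD11b+ cells, and Hist1h2bj lost its call (log2 fold change -1.44, edgeR adjusted p = 0.069). No paired analysis was possible for the MHCII+ set because both splenic titles carry the same number. The calls of the rare members Hist1h4c, Hist1h2ad, Hist1h2bq, Hist1h2br, Hist1h2bj and Hist1h3a, which lay under 1 CPM in at least 1 group, were each lost when single libraries were left out, as were calls of the more abundant Hist1h1c and Hist3h2a. The part of depth in this was not tested.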
